A study of Arabidopsis thaliana with 18 samples.

Results

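The recovery of Arabidopsis thaliana roots from high osmotic stress was followed as the step from 3 arrays of stressed roots to 3 arrays of roots of the day after the stress. These 6 arrays were chosen by their titles, which name osmotic roots of day 10 and of day 11, and they are 6 of the 18 arrays of the series. The study compared leaves and roots of accession Columbia-0 in 3 conditions with 3 biological replicates for each of 6 groups, on Affymetrix ATH1 arrays, which read transcript levels through sets of short probes. Plants grew hydroponically in MGRL medium, a defined mineral solution. Mock plants stayed in this medium, osmotic plants received 0.3 M mannitol in it for 3 h in the light, and recovery plants were put back into mannitol-free medium for 1 day. The groups of day 11 were taken as the recovery plants. Mannitol is a sugar alcohol that lowers the water potential around the root.

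All groups share the wild-type genotype and the basal medium. The mock roots carry the label of day 10, so the step from osmotic to day 11 roots holds a further day of age and a transfer between media as well as the removal of mannitol. The 18 arrays of the series hold no mock plants of day 11. The labels count days 10 and 11 whereas the treatment description speaks of 30-day-old plants, so age is given here only by the label. Neither the hour of sampling on day 11 nor whether plants were pooled is given in the sources used here. Nothing says how the replicates were separated beyond the word biological, so p-values measure the spread between these samples. The precision of every value is limited by 3 arrays for each group.

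Plants that lose water to the medium make abscisic acid (ABA), which induces genes for hydrophilic protective proteins such as dehydrins and other late embryogenesis abundant (LEA) proteins. Root growth slows at the same time, and growth needs wall loosening by expansins and xyloglucan endotransglucosylases (XTH) and new cells from the meristem. When the medium is diluted again, water flows back into root cells, and stress transcripts can decline before growth is restored.

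Values are log2 expression levels, so a difference of 1 is a 2-fold change. A change is the mean of the 3 day 11 roots minus the mean of the 3 osmotic roots. It is given with the standard error (SE) of limma. That SE rests on a spread estimated over all 6 groups and drawn towards that of other probe sets. It can be smaller or larger than an SE from the 3 against 3 arrays printed beside it. All adjusted p-values come from limma, fitted to the 18 arrays and adjusted over 22746 probe sets, with a threshold of 0.05. In whole roots, fewer cells of a type and less RNA in each cell cannot be told apart. Where the lower group mean lay under 4.35, the lower quartile of all values, a change may be understated. Levels of different genes are not set against each other.

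The arrays of a root group correlated at 0.9867 to 0.994 for osmotic roots, 0.9925 to 0.9939 for day 11 roots and 0.9935 to 0.9947 for mock roots. Medians of the 9 root arrays lay between 6.574 and 6.686. The 3' minus 5' difference of the actin control, a measure of RNA quality, was 1.07 to 1.28 in osmotic roots and 1.26 to 1.46 in day 11 roots, and its part in the results was not tested. Root identity was plain: the summed level of 4 root marker genes was 13.14 to 13.26 on the log2 scale in osmotic roots, 13.51 to 13.58 in day 11 roots, 13.56 to 13.72 in mock roots and at most 6.37 in leaves. The osmotic and day 11 arrays did not overlap in this sum. Of its members AT3G01190 rose by 0.69 ± 0.11 in the step (limma adjusted p = 0.00024). EXPA7 fell by 0.50 ± 0.17, at a limma adjusted p that rounds to 0.05. AT1G26250 (0.24) and EXPA18 (0.18) did not pass. The part of the shift of this sum in the results was not tested. The summed level of 4 photosynthesis genes was 6.74 to 7.38 in the same 6 arrays and at least 14.43 in leaves. The photosynthesis gene RCA, encoding rubisco activase, rose by 0.83 ± 0.18 in the step (limma adjusted p = 0.0029), and PSAE-1, a subunit of photosystem I, fell by 0.79 ± 0.25 (limma adjusted p = 0.031). The latter call was lost without osmotic root replicate 2 or day 11 root replicates 1 or 3.

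The step changed 4325 of 22746 probe sets (19.0%), of which 2311 (10.2%) were higher and 2014 (8.85%) lower at day 11. The falls were the larger changes. Probe sets that rose had a median change of 0.68, and those that fell a median of -0.83. At least 2-fold changes were 593 rises (2.61%) and 812 falls (3.57%), at least 8-fold changes were 12 rises and 57 falls, and at least 16-fold changes were 2 rises and 21 falls. The plot of change against level shows this asymmetry, with a lower tail that reaches past -6.

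**Figure D1:**
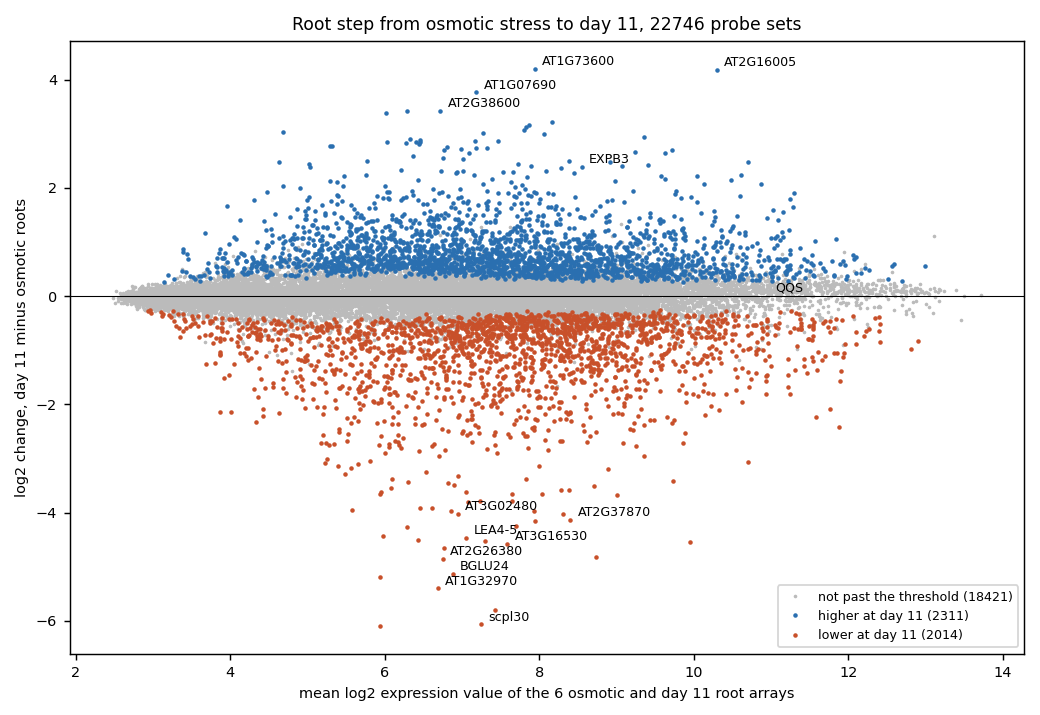
Log2 change from osmotic to day 11 roots (vertical axis) against the mean log2 expression value of these 6 arrays (horizontal axis), 1 point for each of 22746 probe sets. Blue points (2311) were higher and red points (2014) lower at day 11, and grey points did not pass the threshold. The red tail runs further from 0 than the blue, with scpl30 at -6.06 and AT1G73600 at 4.21 as the most changed named genes in each direction.

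Set beside it, osmotic against mock roots changed 5523 probe sets (24.3%) and day 11 against mock roots 1741 (7.65%). Of the latter, 830 (3.65%) were above and 911 (4.01%) below mock. These comparisons share arrays with the step, so their values are given side by side and not as independent evidence. Genes are named where 1 probe set or more stands for that gene alone, which gave 13355 genes. Of these, 1258 (9.42%) rose and 1041 (7.79%) fell in the step. The median change over these genes was 0.01.

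The genes that fell furthest were near the bottom of the measured range in mock roots, high under mannitol and low again at day 11. The steepest fall belonged to scpl30 (AT4G15100), which encodes a serine carboxypeptidase-like protein, a class of secreted hydrolases and acyltransferases. Its level was 4.19, 3.74 and 3.90 in mock roots, 10.03, 10.95 and 9.83 in osmotic roots, and 3.71, 4.37 and 4.56 in day 11 roots. Each osmotic array was far above each array of the other groups, and the mock and day 11 arrays overlapped. The change was -6.06 ± 0.24, a 66.8-fold difference (limma adjusted p = 1e-11).

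AT1G32970 read 9.35, 9.27 and 9.53 in osmotic roots and 4.04, 3.43 and 4.49 in day 11 roots, against 3.53, 3.51 and 3.54 in mock roots. This fall of 42.2-fold (-5.40 ± 0.19, limma adjusted p = 1.5e-12) left the day 11 arrays on both sides of the mock arrays. BGLU24 (AT5G28510), a beta-glucosidase gene, read 9.70, 9.36 and 9.28 in osmotic roots and 3.87, 5.17 and 3.90 at day 11. Mock roots read 3.37, 3.05 and 3.04, so that all 3 day 11 arrays were still above them. It fell by 5.13 ± 0.24 in the step (limma adjusted p = 9.4e-11) and was 1.16 ± 0.24 above mock at day 11 (limma adjusted p = 0.0064).

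LEA4-5 (AT5G06760) encodes a late embryogenesis abundant protein, a hydrophilic protein made in drying seeds and in stressed tissue. Its level was 4.81, 4.93 and 4.58 in mock roots, 9.45, 9.41 and 8.99 in osmotic roots, and 4.64, 4.83 and 4.99 in day 11 roots. The osmotic arrays stood apart from both other groups, which overlapped. It fell by 4.46 ± 0.22, a 22.1-fold difference (limma adjusted p = 2.2e-10), and day 11 minus mock was 0.05 ± 0.22 (limma adjusted p = 0.93).

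The remaining 6 of the 10 largest falls were AT2G26380 (-4.85), AT3G16530 (-4.58), AT2G37870 (-4.13), AT3G02480 (-4.03), AT5G47980 (-3.97) and AT2G22760 (-3.94), for which the gene tables used here give no name. Their limma adjusted p-values were at most 5.9e-07. AT3G16530 had the widest spread under stress, with 8.60, 10.86 and 10.16 in osmotic roots and 5.50, 5.13 and 5.25 at day 11. AT5G47980 was tight in both groups, with 8.75, 8.63 and 9.14 under mannitol and 4.88, 4.76 and 4.96 at day 11. The plot of values by array shows that in each of these genes the osmotic arrays lay clear of the day 11 arrays, as the rule for naming them required.

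**Figure D2:**
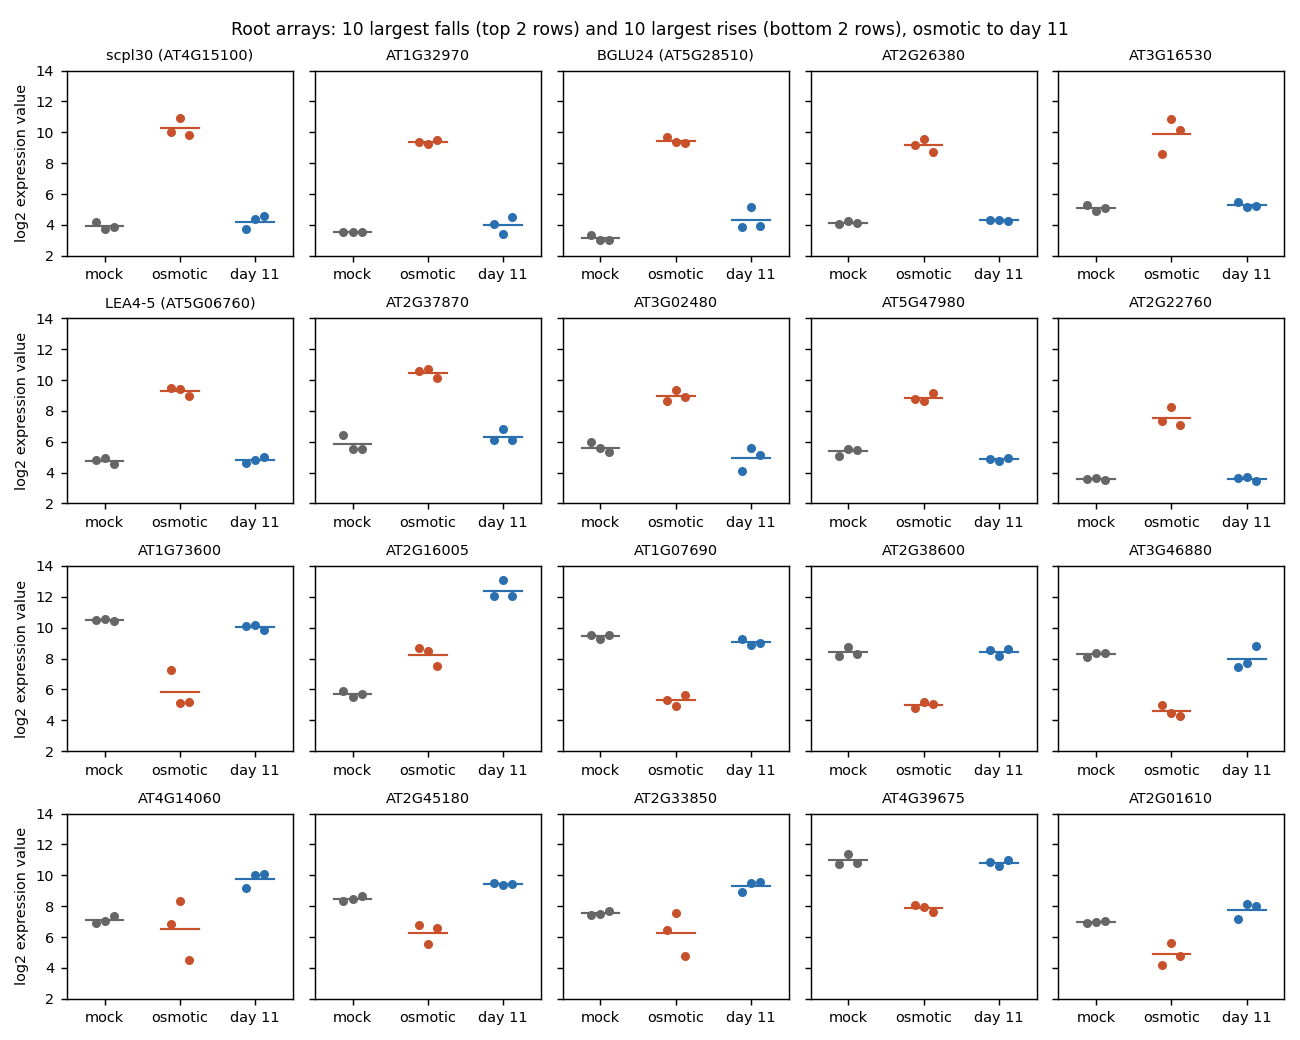
Log2 expression values of the 9 root arrays (points) with group means (lines) for the 10 largest falls (top 2 rows) and the 10 largest rises (bottom 2 rows) of the step. The falling genes peak in osmotic roots, and most rising genes dip there, whereas AT2G16005 climbs from about 5.7 in mock roots through 8.2 to 12.4 at day 11.

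Genes of the dehydration and ABA response fell together in part. Of 22 genes listed, 7 had a probe set of their own. Of these 7, 4 fell (7.79% of all genes fell), none rose and 3 did not pass. The median change was -1.38 against 0.01 over all genes. Among the falls was LEA4-5. The others that fell were LTI30 and COR47, which encode dehydrins, and PUB19, a U-box ubiquitin ligase that acts in ABA signalling. LTI30 (AT3G50970) read 12.77, 12.57 and 12.74 in osmotic roots and 9.84, 10.90 and 10.67 at day 11. Its day 11 arrays were all below the osmotic arrays and reached above the mock range of 9.65, 10.20 and 9.69. The change was -2.23 ± 0.24 (limma adjusted p = 2.5e-06). COR47 (AT1G20440) fell by 1.38 ± 0.13 (limma adjusted p = 5.6e-07) from 12.74, 12.41 and 12.62 to 11.22, 11.29 and 11.12, and PUB19 by 1.43 ± 0.23 (limma adjusted p = 0.00016).

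Members that did not pass were COR15A (-0.09), COR15B (0.15) and XERICO (0.02). COR15A and COR15B encode proteins that protect chloroplast membranes, and XERICO a RING protein that raises ABA content. COR15A and COR15B had not passed in osmotic against mock roots either (0.29 and -0.01). XERICO was below mock in osmotic roots (-0.63, limma adjusted p = 0.0028) and at day 11 (-0.61, limma adjusted p = 0.013). Among 7 LEA genes found by name, 2 fell (7.79% of all genes fell), LEA4-5 and LEA18 (-0.72 ± 0.16, limma adjusted p = 0.0037), and none rose.

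SIS and COR27 were among the 12 largest falls of genes with a symbol. SIS, a salt-induced serine-rich protein gene, read 9.36, 9.79 and 9.44 in osmotic roots, 6.65, 6.68 and 6.75 at day 11 and 6.33, 6.68 and 6.62 in mock roots. It fell by 2.84 ± 0.26 (limma adjusted p = 4e-07). COR27 (AT5G42900), a cold-regulated gene that acts in light and circadian clock signalling, read 7.19, 7.51 and 7.22 under mannitol and 4.18, 4.62 and 4.83 at day 11. It fell by 2.76 ± 0.25 (limma adjusted p = 2.5e-07), and its day 11 arrays reached above the mock range of 3.75, 4.18 and 4.46. Of 18 clock genes listed, 3 had a probe set of their own. COR27 and AT4G33980 (-1.42) fell (7.79% of all genes fell), while GI, a core clock regulator, moved by -0.03 (limma adjusted p = 0.91). Since the sampling hour of day 11 is not known, the part of time of day was not tested.

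Many beta-glucosidase genes fell. These enzymes release glucose from stored conjugates of hormones, lignin precursors and defence compounds. In this family of 20 measured genes there were 8 falls and 1 rise, beside 7.79% and 9.42% of all genes. The median was -0.27. BGLU27 (AT3G60120) read 7.48, 9.41 and 9.03 in osmotic roots and 5.77, 4.65 and 5.02 at day 11, a change of -3.49 ± 0.50 (limma adjusted p = 5.2e-05). BGLU32 (-2.32), BGLU40 (-2.09), BGLU31 (-2.09), BGLU45 (-1.90), BGLU16 (-1.74) and BGLU46 (-1.58) fell with limma adjusted p-values of at most 0.0001. BGLU45 and BGLU46 belong to the group that acts on monolignol glucosides, the stored precursors of lignin. The single rise, BGLU44 (1.04 ± 0.31, limma adjusted p = 0.022), was lost without osmotic root replicate 3 or day 11 root replicates 2 or 3. In day 11 against mock roots, 2 of the 20 genes were higher and 0 lower, where 7.04% of all genes passed. BGLU24 was the 1 member past that threshold among the 9 called in the step.

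Genes that respond quickly to touch and calcium also fell. Calmodulin-like proteins (CML) bind calcium and pass its signals on. CML37 (AT5G42380) read 6.34, 7.30 and 6.57 in osmotic roots, 4.26, 4.36 and 4.54 at day 11 and 4.30, 4.35 and 4.76 in mock roots. It fell by 2.35 ± 0.35 (limma adjusted p = 7.2e-05) to arrays that overlapped those of mock. CML38 fell by 2.24 ± 0.33 (limma adjusted p = 7.5e-05) and AT1G76640 by 1.46 ± 0.23 (limma adjusted p = 0.00014). Of 9 listed touch-inducible genes, 3 had a probe set of their own, and all 3 fell (7.79% of all genes fell). The summed level of these 3 genes was 9.23 to 10.15 in osmotic roots, 7.37 to 7.86 at day 11 and 7.12 to 7.70 in mock roots. The sources used here do not record handling before sampling, and its part in this and the other falls was not tested. Of 9 calmodulin-like and EF-hand genes in all, 4 fell and none rose.

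U-box ubiquitin ligases (PUB) and WRKY transcription factors are both known from defence signalling. Of 9 PUB genes, 4 fell (7.79% of all genes fell), led by PUB24 at -1.73 ± 0.27 (limma adjusted p = 0.00011) and PUB19. PUB24 read 8.39, 9.17 and 8.60 under mannitol and 6.97, 6.86 and 7.13 at day 11, within or close to the mock values of 6.95, 6.59 and 7.08. PUB23 and PUB43 passed less firmly, and 2 falls were left without osmotic root replicates 2 or 3 or day 11 root replicate 1. Of 7 WRKY genes, WRKY6 (-1.34 ± 0.22, limma adjusted p = 0.00022), WRKY20 (-0.52) and WRKY53 (-0.84) fell. WRKY6 and WRKY53 are known regulators of leaf senescence. The WRKY53 call was lost without osmotic root replicates 2 or 3 or day 11 root replicates 1 or 2, which left 2 WRKY falls.

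The largest falls of genes with a symbol also took in TET11, a tetraspanin membrane protein gene (-2.55 ± 0.17, limma adjusted p = 7.7e-09), and ATC, a relative of the flowering regulator TFL1 (-2.52 ± 0.19, limma adjusted p = 3.7e-08). TET11 read 6.97, 6.74 and 6.70 under mannitol and 4.41, 4.31 and 4.03 at day 11. ATC read 8.69, 9.03 and 8.35 under mannitol and 6.50, 6.06 and 5.96 at day 11, above each mock array (5.83, 5.24 and 5.24). CCOAMT, a caffeoyl-CoA O-methyltransferase gene, fell by 2.34 ± 0.38 (limma adjusted p = 0.00019), and JRG21, a jasmonate-regulated gene, by 2.25 ± 0.39 (limma adjusted p = 0.00036).

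The largest rises were mostly of genes that mannitol had lowered. AT1G73600 read 10.50, 10.57 and 10.43 in mock roots, 7.23, 5.09 and 5.20 in osmotic roots and 10.10, 10.16 and 9.88 at day 11. Its rise of 4.21 ± 0.36 was 18.4-fold (limma adjusted p = 1.7e-07), and the day 11 arrays lay just under the mock arrays. AT1G07690 rose by 3.77 ± 0.19, from 5.32, 4.93 and 5.64 to 9.28, 8.89 and 9.04 (limma adjusted p = 3.2e-10). AT2G38600 rose by 3.43 ± 0.18, from 4.77, 5.21 and 5.03 to 8.56, 8.13 and 8.61 (limma adjusted p = 3.2e-10). In both, osmotic roots stood far below mock and day 11 roots.

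AT2G16005 took another course, for it was above mock under mannitol and higher still at day 11. It read 5.91, 5.5 and 5.68 in mock roots, 8.65, 8.48 and 7.49 in osmotic roots and 12.04, 13.06 and 12.06 in day 11 roots, with no overlap between any of the 3 groups. The step raised it by 4.18 ± 0.26, 18.1-fold (limma adjusted p = 4.7e-09), and day 11 minus mock was 6.69 ± 0.26 (limma adjusted p = 3.6e-11).

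The remaining rises among the 10 largest were AT3G46880 (3.43), AT4G14060 (3.23), AT2G45180 (3.16), AT2G33850 (3.07), AT4G39675 (2.94) and AT2G01610 (2.91). AT4G14060 read 6.87, 8.30 and 4.49 in osmotic roots, the widest spread among these genes, and 9.19, 10.04 and 10.10 at day 11 (limma adjusted p = 0.00036). AT2G33850 read 6.43, 7.58 and 4.80 in osmotic roots and 8.91, 9.52 and 9.58 at day 11. In both genes osmotic root replicate 3 was the lowest array and replicate 2 the highest, and the day 11 arrays stood above each mock array.

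Wall-loosening genes were among the strongest rises of genes with a symbol. EXPB3, a beta-expansin gene, read 7.65, 7.90 and 6.51 in osmotic roots and 9.40, 9.86 and 9.97 at day 11, a rise of 2.39 ± 0.30 (limma adjusted p = 1.3e-05). EXPA4 (AT2G39700), an alpha-expansin gene, read 8.99, 9.0 and 8.40 under mannitol and 10.36, 10.85 and 11.03 at day 11. It rose by 1.95 ± 0.19 (limma adjusted p = 6.1e-07), and its day 11 arrays overlapped the mock arrays at 10.65, 10.94 and 10.65. EXPA15 (1.38 ± 0.22, limma adjusted p = 0.00016) and EXPB1 (1.1 ± 0.32, limma adjusted p = 0.018) rose too, the latter not without osmotic root replicates 2 or 3 or day 11 root replicates 1 or 2.

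Across the 19 expansin and expansin-like genes the change was not of one sign. 4 rose, 2 fell and 13 did not pass, with a median of 0.03, where 9.42% of all genes rose and 7.79% fell. EXLB1, an expansin-like gene, fell by 0.98 ± 0.19 (limma adjusted p = 0.0014). EXPA7, an expansin of root hair cells, moved by -0.50 ± 0.17 at a limma adjusted p that rounds to 0.05. That call was lost without any single array of the osmotic or day 11 roots other than osmotic replicate 2, and without mock root replicates 1 or 3.

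Xyloglucan endotransglucosylases cut and rejoin the xyloglucan chains that tether cellulose. Of 10 measured XTH genes, 3 rose and 1 fell, beside 9.42% and 7.79% of all genes, with a median of 0.31. The rises were XTH33 (1.39 ± 0.31, limma adjusted p = 0.0034), XTH21 (1.37 ± 0.17, limma adjusted p = 9.3e-06) and XTH16 (1.19 ± 0.24, limma adjusted p = 0.0017). XTH21 read 6.53, 6.0 and 6.40 in osmotic roots and 7.74, 7.74 and 7.58 at day 11, above each mock array (7.29, 6.64 and 6.91). XTH19 went the other way, from 10.53, 10.25 and 10.94 to 9.41, 9.15 and 9.0, a change of -1.39 ± 0.25 (limma adjusted p = 0.0005).

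**Figure D3:**
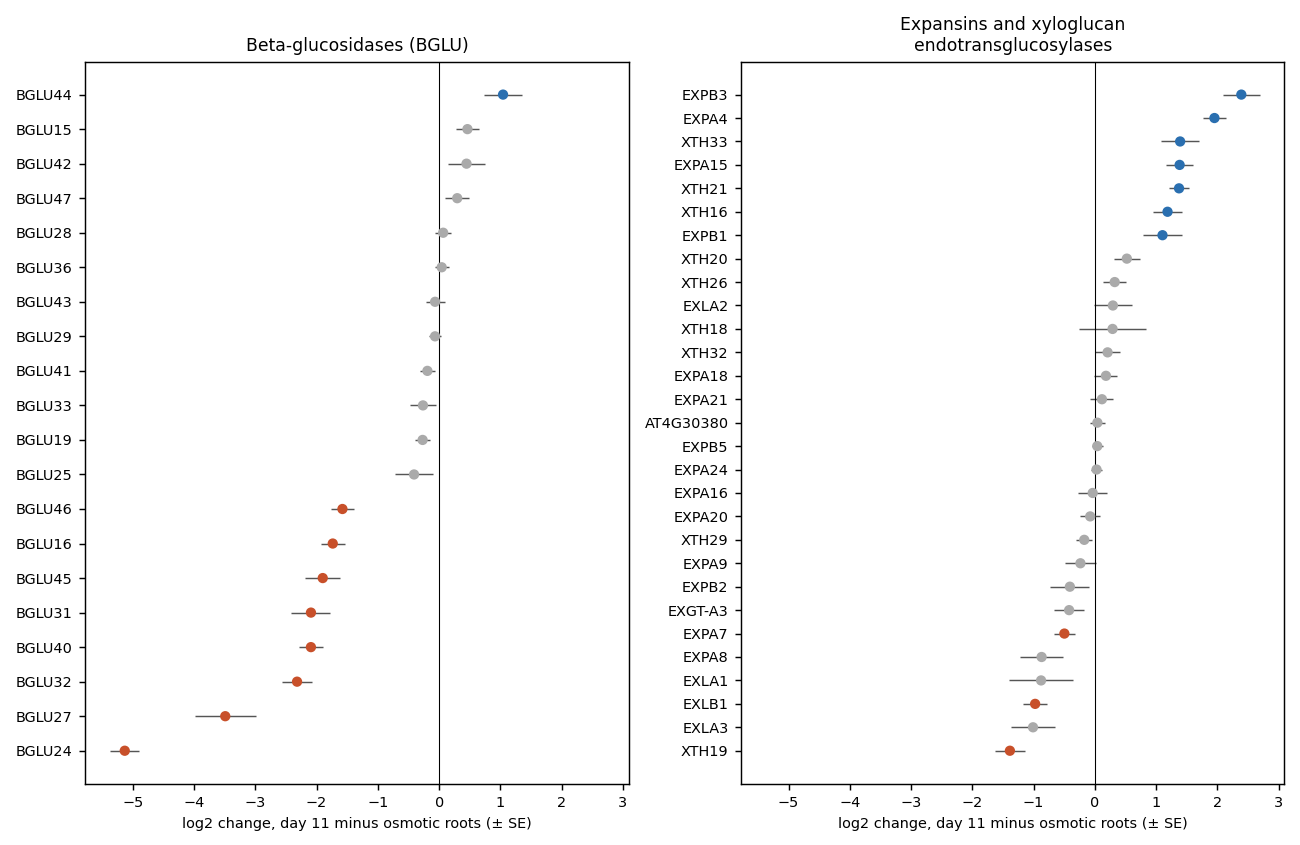
Log2 change from osmotic to day 11 roots (points, with bars of 1 SE) for 20 beta-glucosidase genes (left) and 29 expansin and xyloglucan endotransglucosylase genes (right). Blue and red mark rises and falls past the threshold, and grey points did not pass. Beta-glucosidases spread towards negative values down to -5.13, and wall-loosening genes lie on both sides of 0, from 2.39 for EXPB3 to -1.39 for XTH19.

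Trichome birefringence-like proteins (TBL) add acetyl groups to wall polysaccharides. Of 22 TBL genes, 5 rose and 1 fell, beside 9.42% and 7.79% of all genes. TBL34 rose by 1.44 ± 0.19 (limma adjusted p = 2.4e-05) and TBL41 fell by 0.85 ± 0.16 (limma adjusted p = 0.00078). The number of TBL rises dropped to 3 without osmotic root replicate 3 or day 11 root replicates 1 or 3. Of 4 genes of pectin enzymes, 1 rose (PMEPCRF, 0.73 ± 0.16, limma adjusted p = 0.0024), and none of 3 extensin and proline-rich wall protein genes passed.

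Most measured genes of cell division rose in the step. Of 25 such genes listed, 8 had a probe set of their own. Of these 8, 5 rose (9.42% of all genes rose) and none fell, with a median of 0.55. HTB1 (AT1G07790), encoding histone H2B, was 9.30, 9.15 and 9.45 in mock roots, 8.84, 8.43 and 8.51 in osmotic roots and 9.77, 9.94 and 9.56 in day 11 roots. The 3 groups did not overlap, with day 11 the highest. It rose by 1.16 ± 0.13 in the step (limma adjusted p = 4.5e-06), and day 11 minus mock was 0.46 (limma adjusted p = 0.042). The H2B genes HTB2 (0.80 ± 0.14, limma adjusted p = 0.00047) and HTB4 (0.47 ± 0.10, limma adjusted p = 0.0019) rose as well, and both were above mock at day 11, by 0.57 (limma adjusted p = 0.019) and 0.45 (limma adjusted p = 0.0089). Near-identical H2B genes may share probes, so the 3 need not be independent.

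HTR12, the centromeric histone H3, rose by 0.61 ± 0.16 (limma adjusted p = 0.011), and AUR1, an Aurora kinase that acts in mitosis, by 0.61 ± 0.17 (limma adjusted p = 0.018). Without day 11 root replicate 1, both calls were lost and 3 of the 8 genes rose. The AUR1 call was also lost without osmotic root replicates 2 or 3 or day 11 root replicate 3. AUR2 (0.30), AUR3 (-0.06) and PRL, a helicase subunit of DNA replication licensing (0.49), did not pass.

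Enzymes of secondary metabolism and detoxification moved in both directions. Glutathione transferases of the tau class (GSTU) attach glutathione to reactive compounds. Of 12 measured glutathione transferase genes, 3 rose and 3 fell, beside 9.42% and 7.79% of all genes, with a median of -0.02. GSTU20 (AT1G78370) read 8.57, 8.36 and 8.62 in mock roots, 7.95, 7.85 and 8.06 in osmotic roots and 9.59, 9.58 and 9.67 at day 11. It rose by 1.66 ± 0.15 (limma adjusted p = 2.4e-07) to 1.1 ± 0.15 above mock (limma adjusted p = 0.00017). GSTU27 (0.89) and GSTU28 (0.87) rose, and GSTU25 (-1.87), GSTU26 (-1.72) and GSTU22 (-1.38) fell.

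GSTU26 read 10.18, 10.19 and 9.95 in osmotic roots and 8.67, 8.11 and 8.37 at day 11. GSTU22 had another pattern, for its day 11 arrays (5.94, 6.07 and 6.24) lay below both its osmotic arrays (7.60, 7.26 and 7.53) and its mock arrays (6.81, 6.93 and 7.26). Day 11 minus mock was -0.92 for this gene (limma adjusted p = 0.00092).

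Family 1 glycosyltransferases (UGT) attach sugars to hormones and flavonoids. Of 43 measured, 6 rose and 8 fell, beside 9.42% and 7.79% of all genes, with a median of -0.04. Without osmotic root replicate 2, 5 fell. UGT78D1, a flavonol rhamnosyltransferase, read 6.46, 6.24 and 6.03 in osmotic roots and 4.09, 4.31 and 4.15 at day 11, a change of -2.06 ± 0.20 (limma adjusted p = 6.4e-07). UGT71C5, which glucosylates ABA, fell by 0.49 (limma adjusted p = 0.033), and UGT76C1, which glucosylates cytokinins, by 0.72 (limma adjusted p = 0.012). UGT74F1, which glucosylates salicylic acid, rose by 0.78 (limma adjusted p = 0.00056), and UGT74D1, which acts on auxins, by 1.21 (limma adjusted p = 4e-05).

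Cytochrome P450 enzymes oxidise plant metabolites. Of 24 measured, 6 rose and 1 fell, beside 9.42% and 7.79% of all genes, but 3 rose without day 11 root replicate 2 or 3. CYP71B37 (AT3G26330) read 7.16, 7.26 and 7.37 in mock roots, 6.16, 5.95 and 4.76 in osmotic roots and 8.09, 8.44 and 8.51 at day 11. It rose by 2.72 ± 0.27, 6.59-fold (limma adjusted p = 7.1e-07), to above each mock array (1.08, limma adjusted p = 0.019). CYP71B6 fell by 1.40 ± 0.27 (limma adjusted p = 0.00092).

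Serine carboxypeptidase-like proteins and subtilases, both hydrolase families of the secretory pathway and the wall, had more members that rose than fell. Of 33 measured, 11 rose and 3 fell, beside 9.42% and 7.79% of all genes, with a median of 0.11. The rises were small beside the fall of scpl30. The largest were scpl31 (1.51 ± 0.35, limma adjusted p = 0.0042), scpl18 (0.89) and SCPL45 (0.77), and scpl28 fell by 1.97 ± 0.19 (limma adjusted p = 5.2e-07). The number of rises was 5 without osmotic root replicate 2 or day 11 root replicate 2, and 7 without osmotic root replicate 3 or day 11 root replicate 1.

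**Figure D4:**
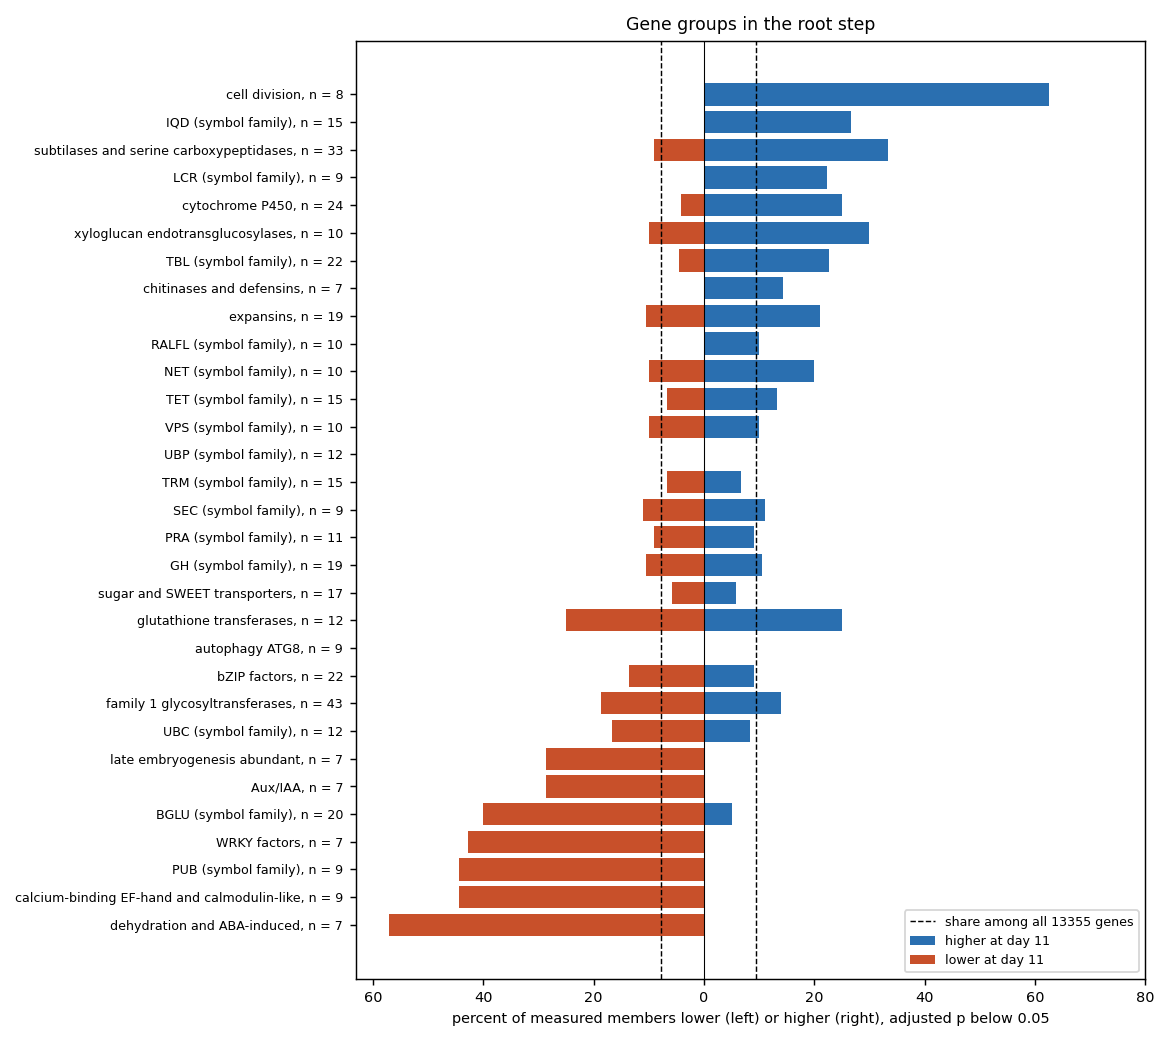
Percent of the measured members of the gene groups shown that were higher (blue, right) or lower (red, left) at day 11 than in osmotic roots, with the number measured beside the name. Dashed lines give the shares among all 13355 genes, 9.42% higher and 7.79% lower. Cell division stands at the top with 5 of 8 members higher, and the dehydration and ABA group at the bottom with 4 of 7 lower.

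Several genes that rose in the step ended above mock. PRX52 and TPS-CIN already stood above mock in osmotic roots, by 1.75 (limma adjusted p = 0.0031) and 1.28 (limma adjusted p = 4e-05). PRX52 encodes a class III peroxidase, a wall enzyme known from lignin formation. It read 3.76, 4.21 and 3.86 in mock roots, 4.49, 6.78 and 5.81 in osmotic roots and 6.92, 7.48 and 6.89 at day 11. It rose by 1.41 ± 0.40 in the step (limma adjusted p = 0.017), a call that was lost without osmotic root replicate 1 or day 11 root replicate 2 and in a fit to these 6 arrays alone. TPS-CIN, a terpene synthase gene for 1,8-cineole, read 4.28, 4.67 and 4.76 in mock roots, 6.10, 6.05 and 5.42 in osmotic roots and 7.21, 7.01 and 7.57 at day 11. As with AT2G16005, the 3 groups did not overlap and day 11 was the highest. The step was 1.41 ± 0.18 (limma adjusted p = 2.1e-05), and day 11 minus mock was 2.69 (limma adjusted p = 1.6e-07).

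JAL22, a jacalin-related lectin gene, read 8.46, 9.78 and 7.14 in osmotic roots and 10.12, 11.13 and 10.79 at day 11, against 7.55, 7.89 and 7.79 in mock roots. The step was 2.22 ± 0.43 (limma adjusted p = 0.0011), and osmotic roots lay on both sides of mock. ASPGB1, an asparaginase gene, rose by 1.95 ± 0.29 (limma adjusted p = 8.2e-05), to 9.83, 10.18 and 10.54, from osmotic arrays of 7.77, 9.26 and 7.67 and mock arrays of 8.34, 8.40 and 8.63. UGT73B1 (1.40 ± 0.30) ended 1.40 above mock (limma adjusted p = 0.0074). Of the genes without a name, AT3G45680 (2.40), AT3G27400 (2.82) and AT4G01390 (2.40) rose and ended 2.44, 1.93 and 1.66 above mock.

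In other genes the step fell short of mock or was absent. QQS (AT3G30720), a gene found only in Arabidopsis thaliana that is known for a role in starch and nitrogen allocation, read 5.41, 5.74 and 5.63 in mock roots and 10.96, 11.08 and 10.80 in osmotic roots. At day 11 it read 11.48, 10.01 and 11.40, on both sides of the osmotic arrays, and the step was 0.02 ± 0.29 (limma adjusted p = 0.97). AT5G28520 had means of 4.11 in mock, 10.85 in osmotic and 7.17 in day 11 roots. It fell by 3.67 ± 0.25 (limma adjusted p = 1.2e-08) and remained 3.07 above mock (limma adjusted p = 8.5e-07).

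PR-1-LIKE, a relative of the pathogenesis-related gene PR1, was the mirror image, with 7.87, 7.73 and 7.51 in mock roots, 4.34, 4.03 and 3.95 in osmotic roots and 6.53, 5.16 and 5.97 at day 11. It rose by 1.78 ± 0.24 (limma adjusted p = 2.4e-05) and stayed below mock, at -1.82 (limma adjusted p = 0.00013), with no overlap between the 3 groups. UGT76D1 rose by 0.68 (limma adjusted p = 0.041) and stayed below mock, at -1.49 (limma adjusted p = 0.00051).

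A pair of GH3 genes, whose enzymes conjugate auxin to amino acids, ended below mock. GH3.3 (AT2G23170) read 5.0, 5.19 and 5.35 in mock roots, 5.64, 5.78 and 5.81 in osmotic roots and 3.76, 4.51 and 4.00 at day 11. It fell by 1.65 ± 0.20 (limma adjusted p = 9.9e-06) to below mock, at -1.09 (limma adjusted p = 0.0031). GH3.17 (AT1G28130) read 9.63, 9.44 and 9.59, then 9.94, 9.80 and 9.88, then 8.48, 8.66 and 8.59 in the same order. It fell by 1.29 ± 0.21 (limma adjusted p = 0.00019) to below mock, at -0.98 (limma adjusted p = 0.0083). In both genes the day 11 arrays lay under each osmotic and each mock array. Among 19 measured genes whose symbols start with GH, not all of them GH3 genes, 2 rose and 2 fell in the step. These counts stand beside 9.42% and 7.79% of all genes. Day 11 roots were below mock in 2 of the 19 and above in 0, where 7.04% of all genes passed. Of 7 measured Aux/IAA genes, which encode repressors of auxin signalling, 2 fell and none rose (7.79% of all genes fell and 9.42% rose), IAA30 (-0.83 ± 0.13, limma adjusted p = 0.00015) and IAA18 (-0.60), the latter not without osmotic root replicate 2 or day 11 root replicate 1.

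The step in leaves of the same treatment groups shares no array with the step in roots. It changed 3888 probe sets (17.1%), of which 2077 (9.13%) were higher and 1811 (7.96%) lower. The 474 probe sets that rose in both organs were 20.5% of the root rises and 22.8% of the leaf rises. The 593 that fell in both were 29.4% of the root falls and 32.7% of the leaf falls. Of the root rises 5.28% fell in leaves, and of the root falls 3.03% rose in leaves. Across the 22746 probe sets, which are not independent, the root and leaf steps correlated at r = 0.325.

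The difference of the step between organs passed the threshold for 2737 probe sets (12.0%), of which 1352 had the higher step in roots and 1385 the lower. Of these, 356 (13.0%) were under the lower quartile in both leaf groups, where little change could be measured. The share of such probe sets among all probe sets was not counted, so 13.0% has no background to be read against. scpl30 had leaf means of 4.14 under mannitol and 3.59 at day 11, and the root step minus the leaf step was -5.51 ± 0.34 (limma adjusted p = 2e-08). For AT1G32970 the difference was -5.41 ± 0.27, for BGLU24 -5.14 ± 0.34 and for AT2G26380 -4.69 ± 0.24, with limma adjusted p-values of at most 4e-08. All 4 genes had leaf means under 4.35 in both groups.

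The largest differences in the rising direction were of AT2G16005 (4.15 ± 0.37), AT1G07690 (3.62), AT2G33850 (3.61) and AT2G38600 (3.56). Leaf means of AT2G16005 were 4.27 under mannitol and 4.30 at day 11, beside root levels above 12. AT2G33850 was measured well in leaves, with means of 9.73 and 9.18, and its leaf step was -0.54. XTH19 moved in opposite directions, falling by 1.39 in roots and rising by 1.78 ± 0.25 in leaves (limma adjusted p = 8e-05), a difference of -3.17 ± 0.35 (limma adjusted p = 1.4e-05).

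**Figure D5:**
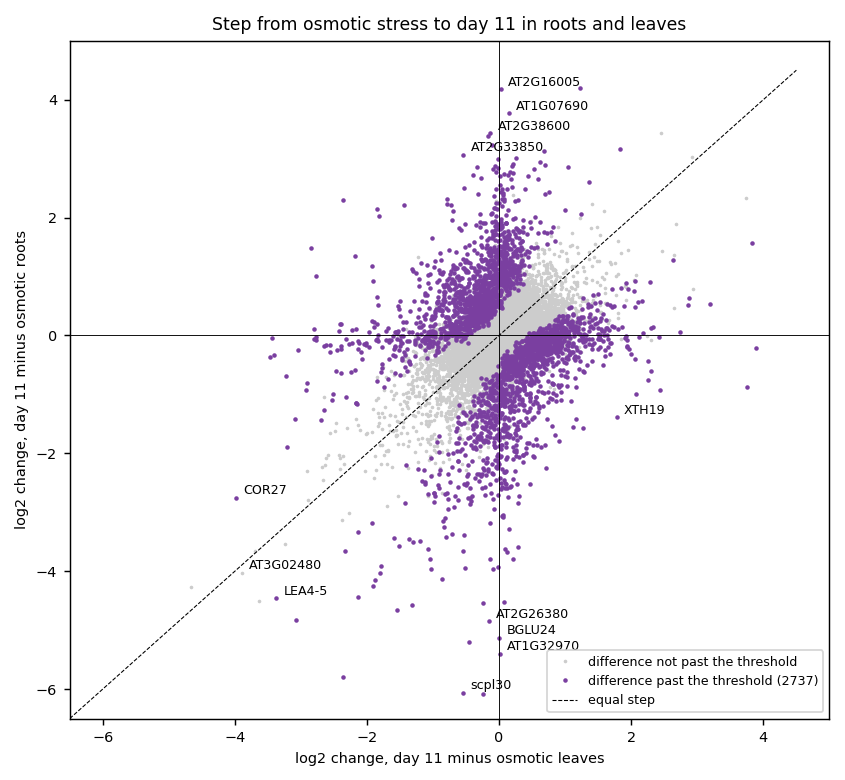
Log2 change from osmotic to day 11 in roots (vertical axis) against the same change in leaves (horizontal axis), 1 point for each of 22746 probe sets. Purple points (2737) are those whose root minus leaf difference passed the threshold, and the dashed line marks equal steps. scpl30, AT1G32970 and BGLU24 lie far below the line near 0 on the leaf axis, AT2G16005 far above it, and LEA4-5 and COR27 fell in both organs.

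The dehydration and ABA group fell more widely in leaves, where 7 of 7 members fell (6.98% of all genes did). The difference between organs, which passed for 10.9% of all genes, passed for 5 of the 7: COR15B (2.05), COR15A (2.04), PUB19 (1.27) and XERICO (1.21) had the lower step in leaves, and LEA4-5 (-1.09, limma adjusted p = 0.029) had the lower step in roots. In roots COR15A had means of 4.23 in mock, 4.52 in osmotic and 4.43 in day 11 roots and COR15B of 4.36, 4.35 and 4.50, all near the lower quartile of all values (4.35), so that little fall could be measured there. LEA4-5 itself fell by 3.38 ± 0.22 in leaves. In cell division the contrast ran the other way, with 0 rises (8.33% of all genes rose there) and 3 falls of 8 members in leaves. The difference passed for 5 of 8, all with the higher step in roots. The 3 touch-inducible genes did not pass in the leaf step, and the difference passed for CML37 (-2.05, limma adjusted p = 0.0095) and CML38 (-2.95, limma adjusted p = 0.00041). Their summed level was 8.12 to 8.40 in mock leaves, 8.96 to 9.98 in osmotic leaves and 9.50 to 10.15 in day 11 leaves.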

How the data were processed

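Total RNA of leaves and roots was hybridised to 18 single-colour ATH1 arrays, per the labels' protocols. The authors deposited log2 expression values, 1 column for each array and 22810 probe sets. How they summarised and normalised the probes is not given in the sources used here, and detection calls were not used. Base 2 was inferred because values ran from 2.381 to 13.864, beyond 11.09, the ceiling of a 16-bit scan on the natural log scale, and under the base 2 ceiling of 16. Values were used as deposited. Without 64 control probe sets, 22746 were analysed. Of these the platform annotation gives 1 gene for 13513, several for 503 and none for 8730, and 13436 were matched to the RefSeq gene table (TAIR10.1). Of the resulting 13355 genes, 147 had several probe sets, of which the brightest was used, and 1535 had a symbol. The others are named by locus, with no role given. No sequences or coordinates were used here.

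R 4.3.3 with limma 3.58.1 estimated a mean for each of 6 groups from the 18 arrays (lmFit, eBayes with a mean-variance trend, Benjamini-Hochberg adjustment over all probe sets of a comparison, threshold 0.05). An exact two-sided permutation of 3 against 3 arrays cannot give a p below 0.1, and no value was tested that way. The rule for named genes took the 10 largest rises and falls past the threshold, at least 2-fold, without overlap of the arrays and with the brighter mean above 6.61, the median of all values. It further took, from each list, at most 4 members that passed and at most 2 that did not, and 4 genes in each direction for the organ difference. Further members are named in the counts of their lists. Members and lists were chosen with earlier results of these data known, and QQS, AT5G28520 and PR-1-LIKE were known from such results. Families sharing a symbol, with at least 9 genes, the 12 largest rises and falls of genes with a symbol, the genes above mock at day 11, and XTH19 in the organ comparison were added after values were seen. Lists are described by counts and medians, without a test. In the step 9.42% of all genes rose and 7.79% fell. A member counts as measured if it had a probe set of its own, as 59 of 268 loci written into lists did. Families were found by words in symbols and synonyms, so their counts need not hold every member of the family. The result of 1 gene family is not reported here.

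The fit was tested on simulated data in which 200 of 22746 probe sets changed in the root step. It found 31.3% of changes of log2 0.5, 83.6% of 1 and 98.5% of 2, with 3.4% false among 147 calls. The simulated noise was independent between probe sets, and far fewer of them changed than the 19.0% called in the step. The adjustment depends on that share, so these rates need not hold for the real arrays. Alternatives were array weights, centring, quantile normalisation, dim probe sets left out, no trend, fewer arrays in the fit, a replicate block, the dimmest probe set of a gene and each array left out in turn.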

Additional observations from a re-analysis of the deposited data

Results flagged for a closer look

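The following results differed between organs by a test of the root minus leaf difference of the step from osmotic to day 11 plants, an interaction term in limma. No explanation was tested. The difference passed for 2737 probe sets. The 4 genes with the largest higher step in roots were AT2G16005 (4.15), AT1G07690 (3.62), AT2G33850 (3.61) and AT2G38600 (3.56), all on the log2 scale. The 4 with the largest lower step in roots were scpl30 (-5.51), AT1G32970 (-5.41), BGLU24 (-5.14) and AT2G26380 (-4.69), which leaves held under the lower quartile of all values. XTH19 fell in roots and rose in leaves, a difference of -3.17. Of the gene groups, 5 of 7 dehydration and ABA genes, 5 of 8 cell division genes and 2 of 3 touch-inducible genes had a difference past the threshold, which 10.9% of all genes passed. Of the 5 dehydration and ABA genes, 4 had the higher step in roots and LEA4-5 (-1.09) the lower. Groups of 3 arrays are too small for a search for outlying arrays.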

How the results depend on the processing

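The counts of the step stayed within 1.5 times their value under every alternative run, and no call of a named gene reversed. Leaving out 1 array at a time gave 1709 to 2380 rises and 1483 to 2091 falls, of which 543 to 652 and 710 to 888 were at least 2-fold. Rises, falls and at least 2-fold falls were fewest without osmotic root replicate 2, and at least 2-fold rises without day 11 root replicate 2. Array weights gave 3379 rises and 2779 falls, and a fit to the 6 arrays alone 1951 and 1862. Centring each array on its median moved the share of rises among calls from 53.4% to 47.8%. The organ difference passed for 2219 to 2765 probe sets when 1 array was left out. Over the alternatives other than those leaving out a leaf array, results of named genes lost a call in 168 cases and gained one in 118, against 3380 that kept their side of the threshold, and 232 of 1836 list counts moved by over 1.5 times. The cause was not tested.

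Replicate numbers are shared between the groups, and whether they pair the samples was not settled. Same-numbered osmotic and day 11 roots deviated from their group means with correlations of 0.151, 0.0194 and -0.0313. Deviations from a mean of 3 arrays depend on each other, so low correlations cannot exclude pairing. Osmotic root replicate 1 correlated best with day 11 root replicate 1, replicate 2 with day 11 replicate 3 (0.253) and replicate 3 with day 11 replicate 1 (0.236). With the replicate number as a block, 2289 probe sets rose and 2043 fell, 599 and 815 of them at least 2-fold, and the organ difference passed for 2819. The block ended the calls of SWEET17 and PRA1.H (-0.39), 2 of the named genes.

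Signal over background limits the dim genes, and detection calls were not used here.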

Other observations

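Gene groups without a clear direction in the root step were also counted. Autophagy genes of the ATG8 family, whose products coat autophagosomes, gave 0 rises and 0 falls of 9 in limma, with a median of -0.15. Over all genes, 9.42% rose and 7.79% fell. ATG8D was the closest to a call at -0.41 ± 0.14 (limma adjusted p = 0.059), and it was the 1 member with an unadjusted p under 0.05. Among all 13355 genes, 3653 had an unadjusted p under 0.05 in the step. Of 13 listed genes known from sugar starvation, 3 had a probe set of their own, of which 1 fell and 0 rose. IVD, an enzyme of leucine breakdown, fell by 0.60 ± 0.19 (limma adjusted p = 0.031). That call was lost without osmotic root replicate 2 or day 11 root replicates 1 or 2. Among 17 sugar transporters, 1 rose and 1 fell, beside 9.42% and 7.79% of all genes. SWEET17, a fructose carrier of the vacuole, rose by 0.29 (limma adjusted p = 0.031) and SWEET11, a sucrose exporter, fell by 0.64 (limma adjusted p = 0.047). Each of these 2 calls was lost in several of the fits that leave out 1 array, among them those without day 11 root replicate 1.

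Of 22 bZIP transcription factor genes, 2 rose and 3 fell, beside 9.42% and 7.79% of all genes. FD, a partner of the flowering signal FT, rose by 1.17 ± 0.18 (limma adjusted p = 9.8e-05), and BZIP60, a regulator of the unfolded protein response in the endoplasmic reticulum, fell by 0.68 ± 0.14 (limma adjusted p = 0.0018). bZIP48 fell by 1.86 ± 0.22 (limma adjusted p = 5.6e-06).

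Among other families, 4 of 15 IQD genes, which encode calmodulin-binding proteins, rose (9.42% of all genes rose) and none fell. Without day 11 root replicates 1 or 2, 2 IQD rises were left. Of 9 LCR genes for small cysteine-rich peptides related to defensins, LCR68 (1.03 ± 0.14, limma adjusted p = 3.7e-05) and LCR69 (0.89) rose, the latter not without osmotic root replicate 3. Of 12 UBP genes for ubiquitin-specific proteases, 0 passed in limma, where 9.42% of all genes rose and 7.79% fell. An unadjusted p under 0.05 was found for 1 of them, beside 3653 of all 13355 genes.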
